A study of Homo sapiens with 6 samples.

Results

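The genes described here are 37 DNA replication genes, chosen by symbol from a fixed list of origin licensing, helicase, polymerase, clamp and S-phase genes. All 37 were matched by their GENCODE 29 gene identifiers among the 25969 genes of the deposited files, and all passed the filter on low values. They were compared between 3 libraries of prostate cancer cells labelled LNCaP that carried a VIM-AS1 overexpression vector and 3 libraries of the same labelled cells with the pcDNA3.1 vector, an expression plasmid used as the control. VIM-AS1 is a long noncoding RNA read from the strand opposite the vimentin gene. The control cells are labelled WT, and no time after transfection was stated. Nothing in the labels ties the libraries of a group to separate cultures. The p-values therefore set a group difference only against the scatter among these libraries, and that scatter may be technical. The series asks how VIM-AS1 overexpression affects gene expression in these cells.

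Before a cell copies its DNA, the origin recognition complex, CDC6 and CDT1 load the ring-shaped MCM2-7 helicase onto origins, a step called licensing, and geminin (GMNN) blocks CDT1 once S phase has begun. MCM10, CDC45 and the GINS complex then turn the loaded ring into an active helicase, cyclin E with CDK2 drives entry into S phase, and E2F factors raise the transcription of many of these genes. At the fork, polymerase alpha with primase starts each strand, polymerases epsilon and delta extend it, RFC loads the sliding clamp PCNA, FEN1 and LIG1 join the lagging-strand fragments, and CAF-1 places histones on the new DNA.

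Many replication genes carry E2F-type letters near their start, and 4 promoter windows show members with and without them. The windows are the 250 bases before the RefSeq gene start (GRCh38.p14), 5′ to 3′ on the gene's strand, and were taken from the 6 windows that held no annotated exon. Capitals mark the letters TTTCCCGC, TTTCGCGC, TTTGCCGC or TTTGGCGC, searched on both strands with overlapping matches allowed. MCM6 (chr2:135876444-135876693, minus strand) and E2F2 (chr1:23531234-23531483, minus strand) hold such letters, and neither gene was called in any test of all libraries described here. GINS1 (chr20:25407423-25407672, plus strand) and CLSPN (chr1:35769979-35770228, minus strand) hold none and were called higher in the test with a term described below. The other 2 of these 6 windows, not printed, belong to POLA1 (1 match) and CHAF1A (0 matches), and neither gene was called.
MCM6: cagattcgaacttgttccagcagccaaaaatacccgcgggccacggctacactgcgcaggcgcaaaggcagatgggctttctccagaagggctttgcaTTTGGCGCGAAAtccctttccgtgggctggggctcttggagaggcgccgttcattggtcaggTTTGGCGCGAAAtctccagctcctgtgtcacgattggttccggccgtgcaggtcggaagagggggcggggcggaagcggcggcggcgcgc
E2F2: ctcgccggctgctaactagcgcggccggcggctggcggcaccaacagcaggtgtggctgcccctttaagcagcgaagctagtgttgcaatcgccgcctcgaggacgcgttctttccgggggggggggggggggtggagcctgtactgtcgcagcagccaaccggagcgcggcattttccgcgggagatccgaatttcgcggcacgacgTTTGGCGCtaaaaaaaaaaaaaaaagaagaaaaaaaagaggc
GINS1: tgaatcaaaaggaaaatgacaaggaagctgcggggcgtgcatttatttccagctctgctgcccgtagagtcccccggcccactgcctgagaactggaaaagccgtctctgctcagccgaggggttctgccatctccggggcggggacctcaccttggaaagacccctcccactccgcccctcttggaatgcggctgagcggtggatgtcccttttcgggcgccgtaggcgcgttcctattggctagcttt
CLSPN: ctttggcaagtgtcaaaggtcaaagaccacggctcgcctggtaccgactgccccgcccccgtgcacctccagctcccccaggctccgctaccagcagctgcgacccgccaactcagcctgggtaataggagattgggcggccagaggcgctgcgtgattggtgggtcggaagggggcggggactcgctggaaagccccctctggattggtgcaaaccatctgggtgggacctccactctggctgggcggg

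The MCM6 window has 4 matches in 2 stretches, since each stretch holds TTTGGCGC on the gene's strand overlapping TTTCGCGC on the other, and the E2F2 window has 1. Windows were found for 33 of the 37 members. E2F-type letters were present in 10 of the 33 (30.3%), against 979 of 35116 windows of all genes (2.79%). The members' windows were richer in GC, with a median of 66.0% against 58.0% over all windows, and the shares were not adjusted for this. Of the 11 members called in the test below, CDT1 and GINS2 had a match and 9 had none, and of the 22 others with a window 8 had a match. The letters CCAAT, on either strand, were present in 18 of 33 members' windows (54.5%) and in 32.0% of all windows. A match describes the letters in this window only, and no match says nothing about E2F factors.

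The transfected RNA was checked first. VIM-AS1 stood at 2197, 2019 and 2763 normalized reads in VIM-AS1 replicates 1 to 3, and at 8.63, 1.22 and 5.53 in control replicates 1 to 3, so the labels held (log2 fold change 8.80 ± 0.46, SE; limma without a batch term, adjusted p = 1.62e-05). The 6 libraries held 14762893 to 19889745 recovered reads. KLK3, which encodes prostate-specific antigen and is a defining gene of LNCaP cells, had 0 reads in 5 libraries and 2 in control replicate 1, and FOLH1 reached at most 3.84 normalized reads. KLK2 and TMPRSS2 were not analysed here. The prostate factor HOXB13 was present at 401 to 807 normalized reads. The cells are therefore called here by their label only, which KLK3 and FOLH1 do not bear out. Other lineages were checked by the same values: of the fibroblast genes, COL1A2 and LUM were at 0 to 2.05 while the summed level of the 5 listed genes was 1773 to 2543 in the VIM-AS1 libraries and 2862 to 3709 in the controls, and 3 of the 5 (COL1A1, DCN and PDGFRB) fell in the test with a term described below. The basal epithelial markers summed to 4.90 to 17.9 against 24.9 to 40.3, with KRT5 at 0 to 4.21, and TP63 fell (2.94 to 12.3 against 17.3 to 38.7). The endothelial markers summed to 64.5 to 109 against 33.2 to 64.7, and VWF rose (53.2 to 97.0 against 22.1 to 48.9) while PECAM1 was at 0 in 5 libraries. The part of these markers in the results was not tested. In bulk RNA, fewer cells of a type and less RNA per cell cannot be told apart.

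The third library of both groups differed from the other libraries in a way that followed base composition, and this touched the 37 genes strongly. Across them, the shift of the third libraries had a Spearman rho of -0.88 with the GC content of the longest transcript, against -0.83 across 13168 genes with a mean of at least 20; genes are not independent and share the libraries. In the GC-rich CDT1 the third control stood 0.60 log2 units under the mean of the first and second controls, and in the GC-poor RFC3 it stood 1.03 above them. The shift was nearly the same in both groups, with a Pearson r of 0.94 across the 37 genes. Differences between groups were much less tied to composition, with a rho of -0.09 between fold change and GC content across the members.

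**Figure D1:**
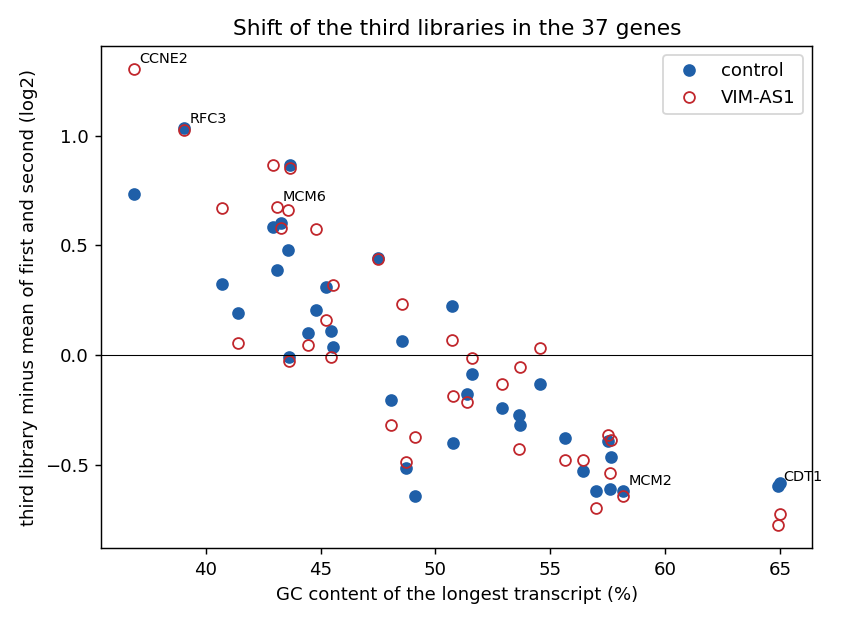
Shift of the third library against the mean of the first and second library of its group (log2, vertical axis) for each of the 37 genes, against the GC content of its longest transcript in percent (horizontal axis), for the control (filled) and VIM-AS1 (open) groups. The shift runs downward with GC content in both groups, and for RFC3 the 2 points coincide while for CCNE2 they lie far apart.

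In limma on log2(value + 1) without any batch term, 0 of 37 members passed an adjusted p of 0.05, where 5 of 20927 tested genes did (0.0239%, with 0.0143% higher and 0.00956% lower). Of the members, 4 had an unadjusted p under 0.05, against 13.6% of all tested genes, and edgeR's quasi-likelihood test on the recovered reads also called 0, beside 0.0191% of all genes (0.00956% higher and 0.00956% lower). With 1 added term for the third libraries, limma called 10 members higher and 1 lower. Among all tested genes that fit called 19.4%, with 11.5% higher and 7.94% lower, and among the 11463 genes with a mean at least that of the lowest member it called 20.2% higher and 10.1% lower. Of the members, 27.0% were called higher, a share nearer to that of these 11463 genes than to that of all genes. These genes share only a minimum mean with the members and were not matched to them in abundance. edgeR with the same term also called 10 and 1, where it called 20.1% of all tested genes, with 11.4% higher and 8.64% lower. After correction of each library for GC content and length, the term's fit called 8 members higher and 1 lower, beside 20.7% of all genes, with 11.2% higher and 9.47% lower. Genes said below to have risen or fallen are those that passed in limma with this term; none of them passed in limma with no added term, correction or block. The term was picked from these data, so its p-values may be too small. Without VIM-AS1 replicate 3, or without control replicate 3, that fit called 0 of 37 members, and without VIM-AS1 replicate 1 or 2 it called 6 and 7. Calls fell over the whole table too. Of all tested genes, 0.674% were higher and 0.664% lower without VIM-AS1 replicate 3, and 0.607% and 0.521% without control replicate 3. Without VIM-AS1 replicate 1 these shares were 7.95% and 4.79%, and without VIM-AS1 replicate 2 they were 6.67% and 5.04%. With the replicate number as a block in place of the term, 15 were called higher and 1 lower, where 26.6% of all tested genes were called, 15.8% higher and 10.8% lower.

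Changes were small, with 27 of 37 log2 fold changes above 0. A value above 0 was found in 48% of all tested genes and in 58.9% of genes with a mean at least that of the lowest member. The members' median log2 fold change was 0.18, with values from -0.56 to 0.68. Over all tested genes the median was -0.02, and over genes with at least that minimum mean it was 0.08. The members' median was 0.17 in the first and second libraries alone and 0.22 in the third libraries alone. The sign was the same in both for 33 of 37 members, and for 71.4% of all tested genes. Groups did not overlap for 8 members with higher values and for RFC4 with lower ones, where 19.8% of all tested genes did not overlap, 9.5% higher and 10.3% lower. Of the helicase activation genes 4 of 5 rose, with a median log2 fold change of 0.45, and of the polymerase and primase genes 0 of 5, with a median of -0.02. Fold changes are the same with and without the term, since each group has 1 library numbered 3; the term changes their SE only.

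**Figure D2:**
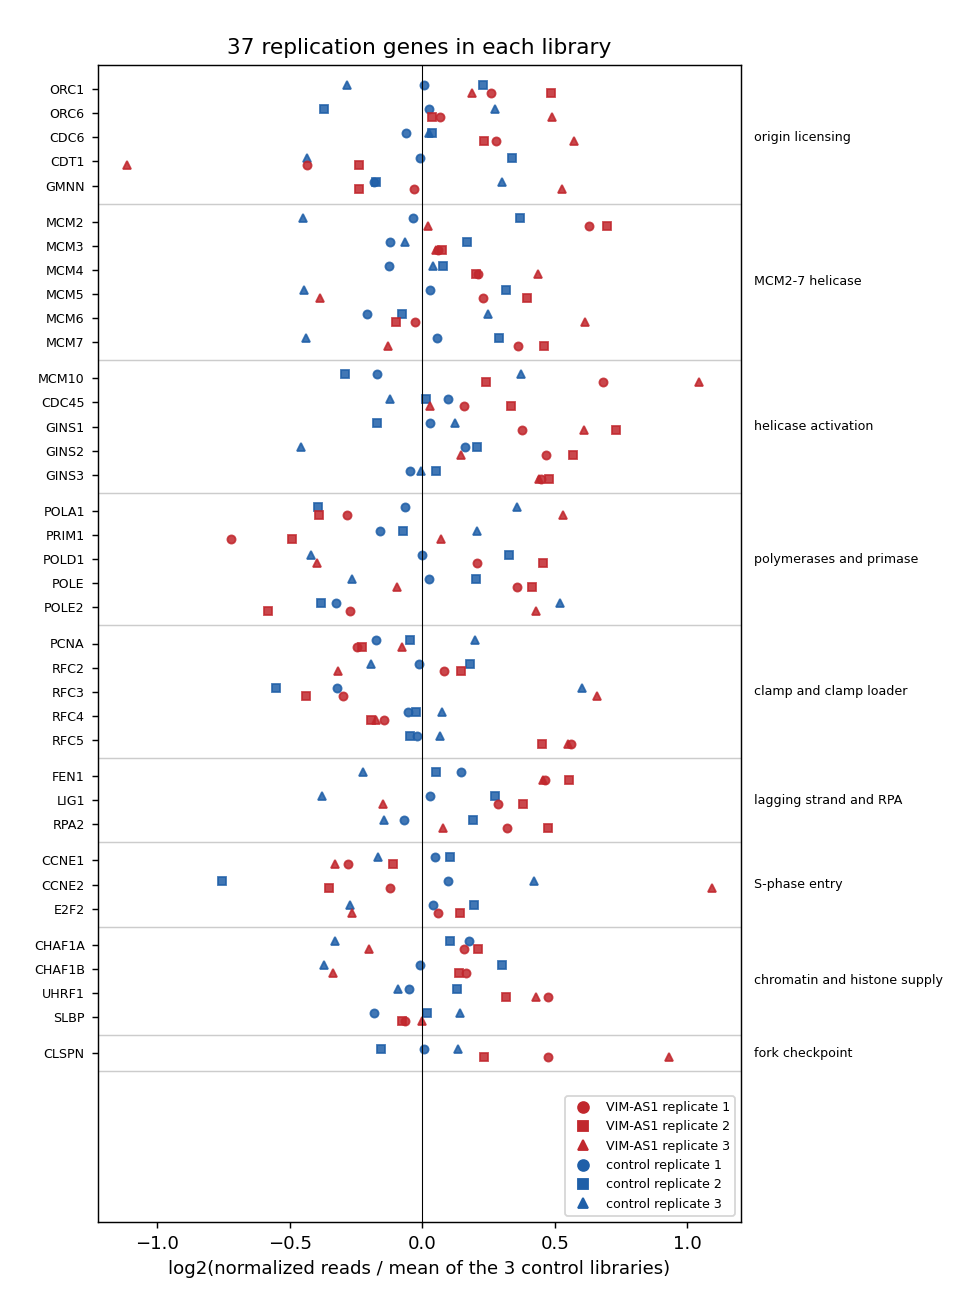
Normalized reads of the 37 genes in each library as a log2 ratio to the mean of the 3 control libraries (horizontal axis), with genes grouped by complex (vertical axis); red is VIM-AS1, blue is control, and symbols give the replicate. RFC5, FEN1, UHRF1, GINS1 and GINS3 are among the genes with all 3 red points to the right of the blue ones, while for RFC3 and POLE2 both triangles lie apart from the other points.

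Among the licensing genes, CDC6 rose and CDT1 fell, although the proteins of both load the MCM ring. CDC6 (ENSG00000094804; chromosome 17, 40287633 to 40304657, GRCh38) was at 1245, 1207 and 1529 normalized reads in VIM-AS1 replicates 1 to 3 and at 984, 1053 and 1045 in control replicates 1 to 3. All 3 VIM-AS1 libraries were above all controls, a rise of 29.2% in the means (log2 fold change 0.36 ± 0.10, SE; limma with the term, adjusted p = 0.0189). This call was lost after correction for GC content and length (adjusted p = 0.091).

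CDT1 (ENSG00000167513; chromosome 16, 88803213 to 88809258) was at 5047, 5783 and 3152 in the VIM-AS1 libraries against 6790, 8632 and 5052 in the controls. Within each replicate number the VIM-AS1 library was the lower one, but the groups overlapped, since VIM-AS1 replicate 2 lay above control replicate 3. The mean fell by 31.7% (log2 fold change -0.56 ± 0.12; limma with the term, adjusted p = 0.00185), and it remained lower after the GC and length correction (-0.54, adjusted p = 0.00047). It was the only member that fell. Per kb of exon, CDT1 stood at 6.75, 7.98 and 3.43 times CDC6 in the VIM-AS1 libraries and at 11.5, 13.7 and 8.05 times CDC6 in the controls. This ratio was chosen after the values were seen and gets no test; its groups did not overlap.

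GMNN, the inhibitor of CDT1, was at 537, 465 and 791 against 484, 486 and 677, with overlapping groups and the third library highest in both (log2 fold change 0.10 ± 0.11, limma with the term, adjusted p = 0.58). ORC1, the largest subunit of the origin recognition complex, was at 775, 908 and 738 against 651, 761 and 533. It did not pass with the term (0.32 ± 0.11, adjusted p = 0.0536) and passed with the replicate block (limma, adjusted p = 0.0067). After the GC and length correction ORC1 was at 0.20 (limma with the term, adjusted p = 0.17). ORC6, its smallest subunit, was at 458, 449 and 614 against 445, 338 and 528 and did not pass. The groups overlapped in both subunits. The other subunits of the complex, from the wider list, had log2 fold changes of -0.23 (ORC2), 0.07 (ORC3), -0.31 (ORC4) and 0.34 (ORC5), and none passed with the term.

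**Figure D3:**
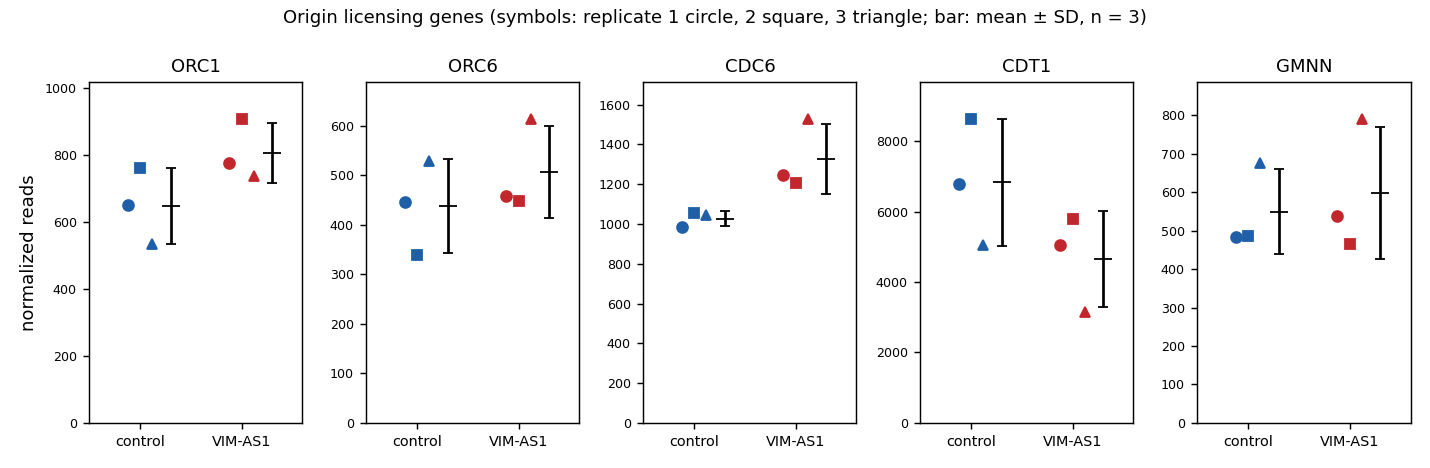
Normalized reads (vertical axes, from 0) of the 5 origin licensing genes in the control and VIM-AS1 libraries; symbols mark replicates 1 to 3 and bars show mean ± SD (n = 3). CDC6 is higher in all 3 VIM-AS1 libraries, from 1207 to 1529 against 984 to 1053, and CDT1 is lower within each replicate number.

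Of the 6 subunits of the MCM2-7 ring all had positive fold changes and MCM2 alone rose. After the GC and length correction the fold change was -0.06 for MCM3 and 0.002 for MCM5. MCM2 (ENSG00000073111; chromosome 3, 127598223 to 127622436) was at 10912, 11460 and 7167 in the VIM-AS1 libraries and at 6901, 9118 and 5166 in the controls. The groups overlapped, because the third library was the lowest in each, and the log2 fold change was 0.49 ± 0.12 (limma with the term, adjusted p = 0.00654; 39.4% higher in the means). Of its exon length 23.6% is also exon of another gene in GENCODE 29, so some of its reads may be uncertain.

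MCM4 was at 4709, 4680 and 5508 against 3726, 4299 and 4181, and its groups did not overlap. Its fold change of 0.29 ± 0.11 did not pass (limma with the term, adjusted p = 0.064; with the replicate block, adjusted p = 0.0076). MCM7, the most abundant subunit, was at 16599, 17771 and 11833 against 13425, 15811 and 9550, with overlapping groups (0.26 ± 0.12, limma with the term, adjusted p = 0.15; with the block, adjusted p = 0.021). MCM4 also passed in 3 further alternatives with the term (a filter of 10 reads, DESeq2 and limma-voom), and MCM7 in none of these 3. After the GC and length correction neither passed in limma with the term. MCM4 was then at 0.13 (adjusted p = 0.27) and MCM7 at 0.21 (adjusted p = 0.078).

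MCM3 was at 5426, 5496 and 5410 against 4790, 5864 and 4985. MCM5 was at 6878, 7719 and 4487 against 5989, 7313 and 4307. MCM6 was at 1187, 1132 and 1852 against 1048, 1147 and 1437. In these 3 genes the groups overlapped, with log2 fold changes of 0.07, 0.11 and 0.18, and none passed with the term or the block.

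Although the ring holds 1 copy of each subunit, the transcripts differed widely in level per exon length. Exon length here merges all annotated exons of a gene, so these levels and their order across genes also depend on the annotation. MCM7 and MCM6 differ in GC content too (57.6% and 43.1%), and no correction for this was made in these levels. MCM7 was highest at 3511 ± 717 normalized reads per kb in the VIM-AS1 libraries and 2948 ± 720.5 in the controls (SD, n = 3), and MCM6 was lowest at 338 ± 97.4 and 294 ± 49.0. MCM7 was 12.02 to 14.7 times MCM6 in the first and second libraries of both groups but only 5.999 and 6.24 times in the third libraries. MCM2 stood above MCM3 in the first and second libraries and under it in the third. For a given replicate number the order of the 6 was the same in both groups.

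**Figure D4:**
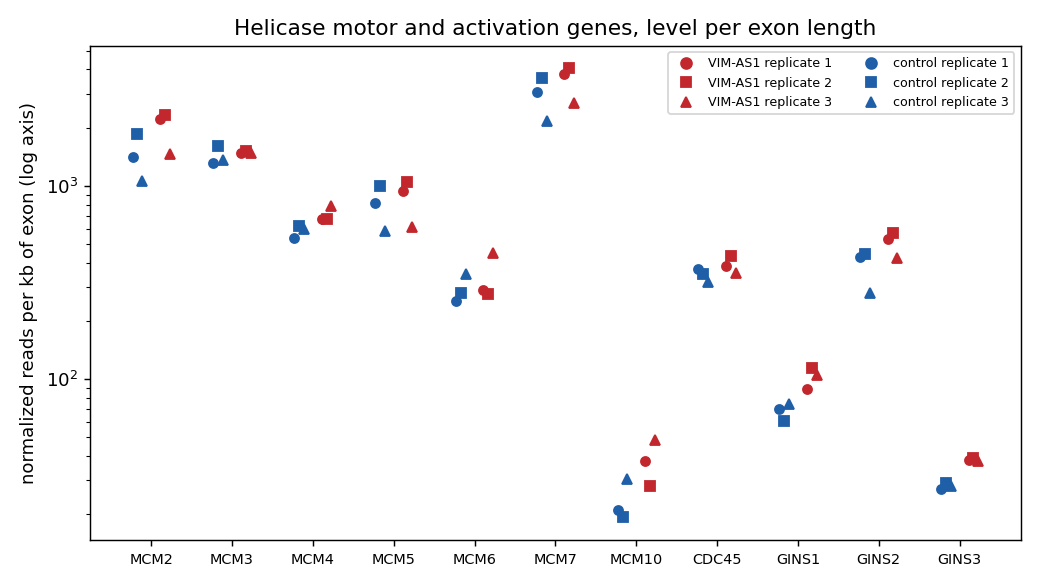
Normalized reads per kb of exon (vertical log axis) for the 6 MCM2-7 genes and the 5 helicase activation genes in each library. MCM7 is highest and MCM6 lowest among the 6 ring subunits in every library, and for GINS1 and GINS3 the 3 VIM-AS1 points lie above the 3 control points.

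Of the 5 genes that activate the loaded helicase, 4 rose and CDC45 did not pass. MCM10, which joins origins as they fire, had the largest fold change among the members. It (ENSG00000065328; chromosome 10, 13161554 to 13211104) was at 206, 152 and 265 in the VIM-AS1 libraries and at 114, 105 and 167 in the controls. VIM-AS1 replicate 2 lay under control replicate 3, so the groups overlapped, and the mean was 61.6% higher (log2 fold change 0.68 ± 0.16, limma with the term, adjusted p = 0.0056).

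The GINS complex, a partner of CDC45 in the active helicase, has 4 subunits, and all 4 rose. GINS1 (ENSG00000101003; chromosome 20, 25407727 to 25452628) was at 362, 463 and 426 against 285, 248 and 304, with no overlap (0.58 ± 0.13, limma with the term, adjusted p = 0.00432). GINS2 (ENSG00000131153; chromosome 16, 85676198 to 85690073) was at 1734, 1863 and 1389 against 1403, 1448 and 913, with overlap because the third library was low in both groups (0.42 ± 0.10, adjusted p = 0.00628). GINS3 (ENSG00000181938; chromosome 16, 58295080 to 58406144) was even within groups, with 195, 199 and 193 against 138, 148 and 142 (0.45 ± 0.15, adjusted p = 0.0383). The GINS3 call was lost after the GC and length correction (limma, adjusted p = 0.059) and whenever any 1 library was left out, and 10.9% of its exon length is shared with another gene.

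GINS4 was not on the list of 37 and completes the complex. It was at 851, 778 and 582 against 540.0, 582 and 355, with the lowest VIM-AS1 library just above the highest control (0.60 ± 0.11, limma with the term, adjusted p = 0.000836), and 23.6% of its exon length is shared with another gene. CDC45, the partner of GINS in the active helicase, was at 1096, 1237 and 1003 against 1051, 992 and 903, with overlap. It did not pass (0.18 ± 0.10, limma with the term, adjusted p = 0.26).

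None of the 5 listed polymerase and primase genes was called. POLE, the catalytic subunit of polymerase epsilon, was at 2846 to 4046 in the VIM-AS1 libraries and 2527 to 3498 in the controls (log2 fold change 0.24 ± 0.10, limma with the term, adjusted p = 0.11; with the block, adjusted p = 0.020). After the GC and length correction POLE was at 0.08 (limma with the term, adjusted p = 0.52). POLD1, the catalytic subunit of polymerase delta, was at 1522 to 2745 against 1496 to 2511, and POLA1, that of polymerase alpha, at 311 to 588 against 310.3 to 521. PRIM1, the catalytic primase subunit, had the lowest value of this group (-0.37 ± 0.16, adjusted p = 0.12), with 105, 123 and 182 against 155, 165 and 201. Of its exon length 21.6% is shared with another gene. POLE2, an epsilon subunit, had a fold change of -0.08 ± 0.16. In these 5 genes the groups overlapped.

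The small epsilon subunits, from the wider list, stood apart from those values. POLE4, a histone-fold subunit, was at 1458, 1692 and 1058 against 847, 892 and 528, with no overlap (0.90 ± 0.11, limma with the term, adjusted p = 1.19e-05). Its partner POLE3 was at 2088, 2266 and 2038 against 1425, 1558 and 1262, also with no overlap (0.59 ± 0.10, adjusted p = 0.000374). The delta subunit POLD4 fell, with 88.5, 101 and 64.5 against 195, 169.8 and 100.3 (-0.83 ± 0.18, adjusted p = 0.00262), and its groups overlapped by less than 1 normalized read. Of the POLD4 exon length 21.3% is shared with another gene. A far more abundant delta subunit, POLD2, rose, with 7856, 9643 and 5274 against 6155, 7179 and 3942 and overlapping groups (0.40 ± 0.11, limma with the term, adjusted p = 0.0179). POLD3 did not pass (0.19 ± 0.12), so the delta subunits did not move in 1 direction. POLA2 and PRIM2, the further subunits of the polymerase alpha and primase complex, had fold changes of -0.04 ± 0.11 and 0.04 ± 0.13 and did not pass.

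In the clamp and its loader, RFC5 rose and the others did not pass. RFC5 (ENSG00000111445; chromosome 12, 118013588 to 118033130), a small subunit of the loader, was at 1078, 999 and 1070 against 720.4, 707 and 765. The 2 groups were far apart beside their spread, and the third libraries did not stand out in this gene (43.5% higher in the means; 0.52 ± 0.10, limma with the term, adjusted p = 0.00134). It also had the lowest adjusted p of all members without the term, 0.27, which did not pass.

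RFC4 was at 779, 752 and 761 against 828, 847 and 904, with no overlap in the opposite direction, yet did not pass (-0.17 ± 0.10, limma with the term, adjusted p = 0.29). RFC2 was at 1998, 2087 and 1514 against 1871, 2139 and 1653. RFC3 was at 335, 304 and 649.8 against 330.0, 281 and 625, so that replicate 3 lay well above replicates 1 and 2 in both groups. PCNA, the clamp itself, was at 2423, 2457 and 2722 against 2543, 2779 and 3296, with overlapping groups (-0.17 ± 0.10, adjusted p = 0.25). RFC1, the large loader subunit outside the 37, had a fold change of -0.24 ± 0.14 and did not pass. Whether RFC5 differs from the other loader subunits in its response was not tested.

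On the lagging strand, the flap endonuclease FEN1 rose. FEN1 (ENSG00000168496; chromosome 11, 61792637 to 61797244) was at 4159, 4427 and 4131 against 3334, 3124 and 2585, with all VIM-AS1 libraries above all controls (0.50 ± 0.10, limma with the term, adjusted p = 0.00198). LIG1, the ligase that seals the fragments, was at 1431, 1524 and 1058 against 1198, 1418 and 902 and did not pass (0.20 ± 0.10, adjusted p = 0.21). RPA2, a subunit of the single-strand binding complex, was at 1430, 1589 and 1209 against 1091, 1308 and 1035. Its groups overlapped, and its adjusted p in limma was 0.058 with the term, 0.032 after the GC and length correction and 0.0061 with the block. Of the other RPA subunits, RPA1 rose (2752, 2820 and 3060 against 2144, 2550 and 2276; 0.31 ± 0.10, limma with the term, adjusted p = 0.042) and RPA3 did not pass (-0.10 ± 0.12). The RPA1 call was lost after the GC and length correction (adjusted p = 0.20). FEN1, RFC5, RFC3, PCNA and RPA2 each have processed pseudogenes in GENCODE 29, and no source used here gives how reads shared with such copies were counted.

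The listed regulators of S-phase entry were not called, while CDK2, the kinase partner of cyclin E, rose. CDK2, from the wider list, was at 2586, 2716 and 2517 against 1939.6, 2225 and 1884, with no overlap (0.37 ± 0.10, limma with the term, adjusted p = 0.0127). CCNE1, a cyclin E gene, was at 459 to 535 in the VIM-AS1 libraries and 514 to 621 in the controls (-0.23 ± 0.11, limma with the term, adjusted p = 0.16). The second cyclin E gene, CCNE2, was the least abundant member at 24.4 to 88.0, and its SE of 0.29 was the largest of the 37, so only a larger difference than in the other members could have passed. Of its exon length 37.1% is shared with another gene. E2F2, a transcription factor of this program, was at 773 to 1027 against 769 to 1063 (-0.01 ± 0.10). The groups overlapped in CCNE1, CCNE2 and E2F2.

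UHRF1 rose among the genes of chromatin and histone supply, and CLSPN rose at the fork checkpoint. UHRF1 (ENSG00000276043; chromosome 19, 4903080 to 4962154), which recruits the maintenance DNA methyltransferase to new DNA, was at 2615, 2342 and 2530 against 1816, 2061 and 1765, with no overlap (0.41 ± 0.10, limma with the term, adjusted p = 0.00817). CLSPN (ENSG00000092853; chromosome 1, 35720218 to 35769967), the claspin gene whose product links stalled forks to the kinase CHK1, was at 155, 131 and 213 against 112, 100.2 and 122. Its groups did not overlap either (0.55 ± 0.17, adjusted p = 0.0283), and the call was lost after the GC and length correction (adjusted p = 0.079). CHAF1A, the large subunit of CAF-1, was at 2441, 2528 and 1901 against 2468, 2348 and 1742. CHAF1B, the middle subunit, was at 834, 818 and 589 against 739.6, 915 and 576. SLBP, which binds the stem-loop of histone messages, was at 1193, 1185 and 1247 against 1102, 1266 and 1379. These 3 genes had overlapping groups and fold changes of 0.07, 0.02 and -0.04, and RBBP4, the small CAF-1 subunit from the wider list, had -0.06 ± 0.10; none passed.

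**Figure D5:**
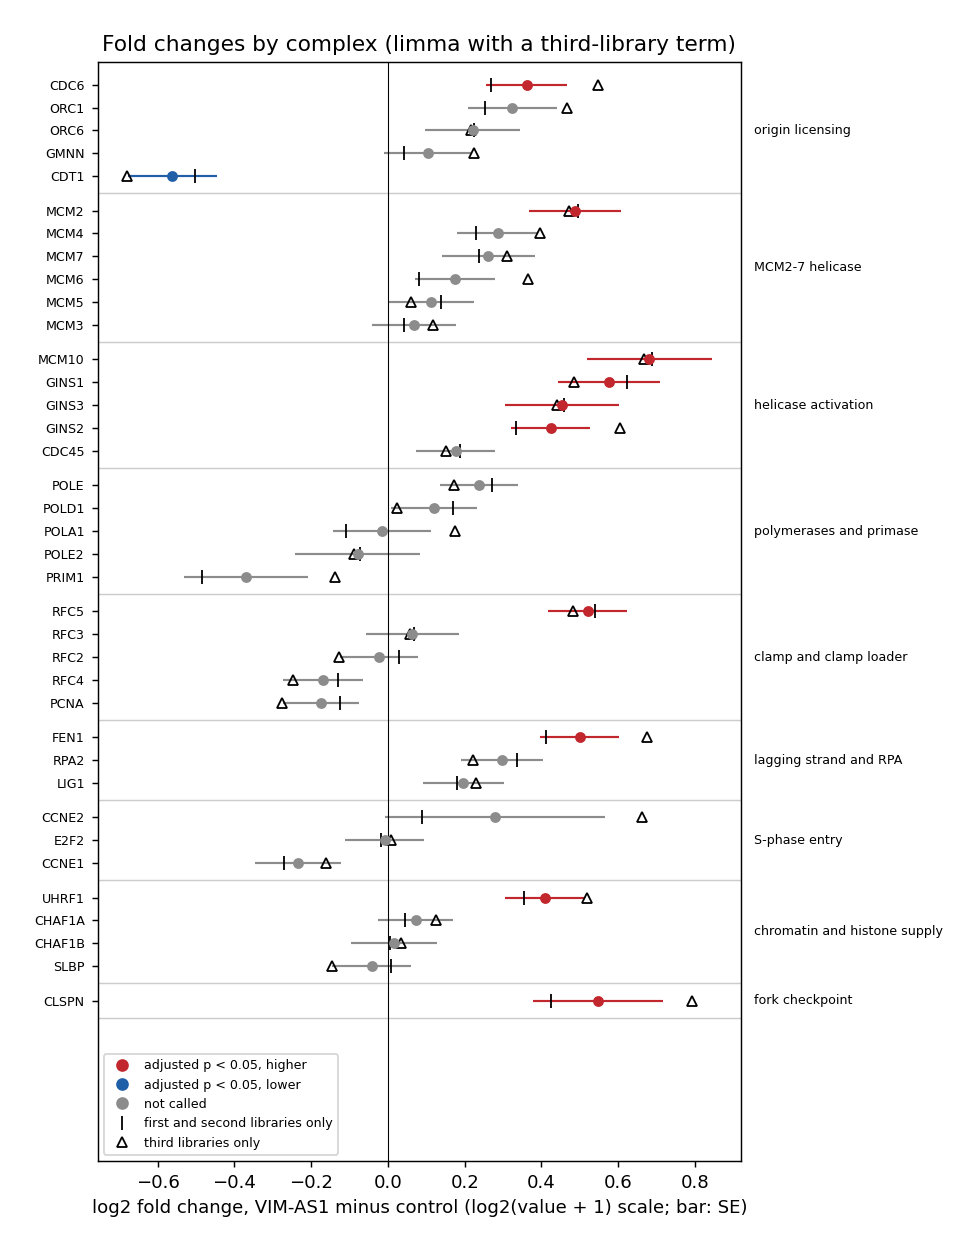
Log2 fold change of each of the 37 genes, VIM-AS1 minus control, on the log2(value + 1) scale (horizontal axis; bars are SE from limma with the third-library term), by complex. Red and blue points passed an adjusted p of 0.05, ticks use the first and second libraries and triangles the third. MCM10 has the highest value, 0.68, and CDT1 the lowest, -0.56.

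Of 43 further replication genes, 9 rose, 2 fell and 32 did not pass, and GINS4, POLE3 and POLE4 were 3 of the 9. The same fit called 11.5% of all tested genes higher and 7.94% lower. Among the 11463 genes with a mean at least that of the lowest member it called 20.2% higher and 10.1% lower. The median log2 fold change of the 43 genes was 0.04, beside 0.18 for the 37 members and -0.02 for all tested genes. CDC25A, the phosphatase that activates CDK2, rose, with 796, 810.3 and 695 against 401, 524 and 425 and no overlap (0.77 ± 0.12, limma with the term, adjusted p = 0.000157). CHTF18, a subunit of an alternative clamp loader, fell, with 1773, 1959 and 1263 against 2317, 2309 and 1610 and overlapping groups (-0.32 ± 0.10, adjusted p = 0.0255). CHTF8, a subunit of the same loader, rose, with 2421, 2546 and 1797 against 1901, 1797 and 1084 and overlapping groups (0.53 ± 0.10, limma with the term, adjusted p = 0.00126), and DSCC1, also of that loader, did not pass (0.04 ± 0.18). The proliferation genes MKI67 and TOP2A, outside both lists, were at 1830 to 2671 and 1143 to 2780 in the VIM-AS1 libraries and at 1802 to 2574 and 1162 to 2631 in the controls, and neither passed with the term.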

How the data were processed

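The submitters' processing notes name fastp, HISAT2, featureCounts and the build hg38. Their versions, the annotation and the strand setting are not given in the sources used here. In processed form the authors deposited a normalized signal per gene, not raw counts. In each library 100% of values were whole multiples of 1 step within 0.01 read, and the step's reciprocal equals the DESeq2 size factor (0.819 to 1.27), so whole reads were recovered. A gene at 0 could hold up to 3 reads, or 2.37 to 3.67 normalized reads by library; this covers counting error only.

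Symbols, positions, exon lengths and GC contents came from GENCODE 29 (GRCh38), and promoters from RefSeq (GRCh38.p14). limma (version 3.58.1, R 4.3.3) was fitted with an intensity trend to log2(value + 1) for 20927 genes with a mean of at least 1, without and with a term for the third libraries; fold changes understate low genes. p-values are two-sided and Benjamini-Hochberg adjusted over all tested genes. edgeR (4.0.16) on the recovered reads called 4 genes without and 4199 with the term. DESeq2 (1.42.0), limma-voom, other scalings, filters, pseudocounts, a GC and length spline correction (5 degrees of freedom each), a replicate block and left-out libraries were alternatives.

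Same-numbered libraries deviated together (Pearson r 0.32, 0.72 and 0.84 for numbers 1 to 3, across 13175 genes), so the numbers were taken to pair the libraries; the labels do not say what they share. VIM-AS1 replicate 1 correlated more with control replicate 2 (0.42) than with control replicate 1, and VIM-AS1 replicate 2 with control replicate 1 had r 0.33. Deviations were taken from the mean of the 3 libraries of a group, so a shift of number 3 alone ties numbers 1 and 2 together. These values set number 3 apart but do not show how numbers 1 and 2 pair. The replicate block and comparisons within a replicate number take the pairing as given. No 2 libraries of a group agreed within sampling noise (chi-square per degree of freedom 7.14 to 69.2). Fits were tested on simulated data. The members and lists were chosen with earlier results of these data known. All 37 members are named, and of the 43 further genes at most 4 per direction with the largest called changes, plus GINS4, POLA2, PRIM2, RFC1, RPA1, RPA3 and RBBP4. ORC2 to ORC5, POLD2, POLD3, CDK2, CHTF8 and DSCC1 were added after their values were seen, to show the rest of their complexes.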

Additional observations from a re-analysis of the deposited data

How the results depend on the processing

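With the term for the third libraries, 11 of 37 members were called, beside 11.5% of all tested genes higher and 7.94% lower. Leaving out each library in turn gave 0 to 12 called, 0 to 11 higher and 0 to 1 lower. Without replicate 3 of either group all 11 lost the call, where fewer samples carry the fit. Both of these fits rest on replicates 1 and 2 of each group only, so they are 1 check. The fits with a library left out called 0.607% to 13.1% of all tested genes higher and 0.521% to 7.6% lower, least without a replicate 3. A minimum absolute log2 fold change of 0.5 left 5, of which 4 were higher, beside 6.23% of all tested genes higher and 6.51% lower. The GC and length correction with the replicate block, added after the data were seen, called 11 higher and 2 lower, CCNE1 being the added one. It called 13.6% of all tested genes higher and 11.9% lower. The count stayed within 1.5 times of 11 under TMM and library size scaling (11 and 8), no filter (11), a filter of 10 reads (14), a pseudocount of 0.1 (11), edgeR (11), DESeq2 (10), limma-voom (12) and the GC and length correction (9). Across these settings 8.33% (library size scaling) to 18% (the filter of 10 reads) of all tested genes were called higher, and 5.72% to 11.9% lower. The replicate block gave 16 called, 15 higher and 1 lower, beside 15.8% of all tested genes higher and 10.8% lower. CDT1, MCM10, GINS1 and RFC5 were called in all 12 settings that keep every library, while CDC6, GINS3 and CLSPN were lost under library size scaling and under the GC and length correction.

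Without the term, 0 members were called in every alternative except the GC and length correction, which called 4, and the replicate block, which called 16. Over all tested genes that correction called 5.47% higher and 4.57% lower, and the block 15.8% and 10.8%. The cause of this difference between settings was not tested. DESeq2 without the term also called 0 members, although over all genes it called 133 higher and 220 lower where limma called 3 and 2. The members' median log2 fold change was 0.12 to 0.22 over 16 alternatives. No called member changed direction in 666 values from alternatives, and 19 values of members not called changed sign. VIM-AS1 passed in every alternative without the term (log2 fold change 8.18 to 9.24). Depth limits CCNE2 most, the member with the fewest reads.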

Other observations

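The 37 genes together took 0.467% to 0.481% of recovered reads in the VIM-AS1 libraries and 0.431% to 0.448% in the controls, with no overlap. The mitochondrial genome took 5.57% to 7.06% of reads in the VIM-AS1 libraries and 8.73% to 14.3% in the controls. Counted over reads outside the mitochondrial genome only, the 37 genes took 0.502% to 0.510% in the VIM-AS1 libraries and 0.472%, 0.510% and 0.508% in control replicates 1 to 3, and the groups overlapped. The MCM2 to MCM7 transcripts summed to 45711, 48259 and 36258 normalized reads against 35880, 43552 and 29627, also with overlap. These sums were chosen after the values were seen and were not tested.

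Per kb of exon, CDT1 stood at 6.97, 9.22 and 2.96 times GMNN in the VIM-AS1 libraries and at 10.4, 13.2 and 5.54 times in the controls, and the groups overlapped. Within each replicate number the VIM-AS1 library had the lower ratio.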
